A study of Rattus norvegicus with 9 samples.

Results

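Peptide presentation by MHC class I was followed in RN46A cells through 10 genes of the 32662 in the count table. RN46A is an immortalised rat cell line made from raphe neurons, with serotonergic features. The members were Psmb8 and B2m, with each gene called Psmb9, Psmb10, Tap1, Tap2 or Tapbp, or having a name that starts with RT1-, in the authors' DESeq2 table or their Salmon and sleuth table for valproate. Both tables list genes by their p-values on the VPA and control libraries, so the comparison of VPA with control chose the members. Their values in it are given below as a description, with no test. The 9 libraries form 3 groups of 3. One group had 0.5 mM VPA (sodium valproate, a mood stabiliser that inhibits histone deacetylases) for 72 h. Another had 0.5 mM lithium, also a mood stabiliser, for 72 h, and the third held controls without a drug. All cells had been differentiated for 72 h before exposure, at a raised temperature in medium with little serum, on collagen and fibronectin. Whether replicate libraries stand for separate cultures is not stated in the labels, and p-values then reflect a spread that may be technical.

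Class I molecules show peptides from inside the cell to cytotoxic T cells. The peptides are cut by the proteasome, whose 3 catalytic subunits can be replaced by the immunoproteasome subunits Psmb8, Psmb9 and Psmb10 when interferon acts on a cell. The transporter formed by Tap1 and Tap2 carries the peptides into the endoplasmic reticulum, where Tapbp, tapasin, helps load them onto a heavy chain paired with the light chain B2m. Most neurons are known for low class I levels that interferons raise.

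The rule found the immunoproteasome subunits Psmb8 (ENSRNOG00000000456), which carries chymotrypsin-like activity, Psmb9 (ENSRNOG00000000459) and Psmb10 (ENSRNOG00000019494). It also found the light chain B2m (ENSRNOG00000017123), the transporter gene Tap2 (ENSRNOG00000000455) and the class I heavy chain genes RT1-CE4 (ENSRNOG00000039744), RT1-CE5 (ENSRNOG00000000723), RT1-CE7 (ENSRNOG00000031090) and RT1-T24-4 (ENSRNOG00000042905). RT1 is the name of the rat MHC. The 10th member, RT1-Ba (ENSRNOG00000000451), is the alpha chain of a class II molecule and entered only through its prefix. Tap1 and Tapbp were absent from both tables and were not analysed here. The DESeq2 table listed 7 of the members, 8 were in the Salmon table, and the authors' lithium table listed 0. The DESeq2 table ran up to an adjusted p of 0.05, and the members nearest that limit were RT1-Ba at 0.04, Psmb9 at 0.037 and RT1-CE7 at 0.031 in the authors' deposited table. Of the 10 members 9 had enough counts to be tested. RT1-Ba passed only through its VPA counts, and Tap2 had 1 count in VPA 3, 1 in control 1 and 0 in the other libraries.

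Reads assigned to genes summed to 9580591 to 13030300 per library, which makes a single count equal to 0.0767 to 0.104 CPM. Levels below are CPM, read counts relative to TMM-scaled library sizes. Library pairs within a group differed by 27.0 to 68.3 chi-square units per degree of freedom, which is more than counting noise. Names were held for 1381 identifiers, those the authors listed by p-value on these libraries, mostly for VPA against control. Cell type markers with a name were thereby favoured to differ with VPA. Their levels and sums are a description and no independent evidence of a shift between the groups. Among markers of cell types, the 6 named of 9 neuronal genes summed to 147 to 160 CPM in the VPA libraries, 40.9 to 52.2 CPM in the lithium libraries and 40.4 to 51.6 CPM in the controls. The 6 named of 8 fibroblast genes summed to 1262 to 1997 CPM with VPA, 3035 to 3656 CPM with lithium and 3389 to 7886 CPM in the controls, with Lum at 0 in all 3 VPA libraries and in lithium 3. Fibronectin, Fn1, made up most of this sum, at 1185 to 1910 CPM with VPA. Pdgfra went the other way, at 6.96 to 9.64 CPM with VPA, 2.37 to 3.53 CPM with lithium and 4.02 to 6.62 CPM in the controls. The 4 named of 7 neural crest and Schwann cell genes summed to 55.9 to 65.1 CPM with VPA, 14.4 to 15.9 CPM with lithium and 11.1 to 16.9 CPM in the controls. S100b of that list went the other way, at most 1.87 CPM with VPA, 3.08 to 4.91 CPM with lithium and 3.26 to 4.54 CPM in the controls. Of 11 serotonergic genes 1 had a name, the monoamine oxidase Maob, at 5.46 to 8.43 CPM with VPA, 0.693 to 1.21 CPM with lithium and 0.868 to 1.45 CPM in the controls. Of 5 endothelial genes 0 had a name. The part of these markers in the differences below was not tested, and fewer cells of a type and less RNA per cell cannot be told apart in bulk RNA.

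The upstream sequences of the members differed in their exact matches to a few short patterns taken from known promoter elements. Variant forms of these elements were not searched, so an unmarked sequence may still hold one. The following 250 bases before the annotated start, 5′ to 3′ on the gene's own strand, are from RefSeq's GRCr8 assembly. They are shown because, among the class I members with a promoter entry, they belong to those with the lowest and highest log2 changes of VPA over control. Capitals mark matches, on either strand, to the core of the interferon-stimulated response element (GAAA, any 2 bases, then GAAA), TTCNNNGAA (the STAT site) and CCAAT (the NF-Y box, ATTGG on the other strand).
Psmb10, chr19:50743293-50743542, minus strand: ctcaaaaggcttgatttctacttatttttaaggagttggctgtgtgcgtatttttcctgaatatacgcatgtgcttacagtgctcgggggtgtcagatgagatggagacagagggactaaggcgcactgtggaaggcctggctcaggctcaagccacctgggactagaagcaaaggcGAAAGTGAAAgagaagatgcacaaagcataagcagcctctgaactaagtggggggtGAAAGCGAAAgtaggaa
Psmb8, chr20:4657032-4657281, minus strand: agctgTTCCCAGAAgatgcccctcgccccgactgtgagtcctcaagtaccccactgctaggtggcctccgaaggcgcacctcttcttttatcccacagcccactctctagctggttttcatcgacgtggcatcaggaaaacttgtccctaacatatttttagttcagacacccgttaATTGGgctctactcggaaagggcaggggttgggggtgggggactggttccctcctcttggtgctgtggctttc
B2m, chr3:129549080-129549329, plus strand: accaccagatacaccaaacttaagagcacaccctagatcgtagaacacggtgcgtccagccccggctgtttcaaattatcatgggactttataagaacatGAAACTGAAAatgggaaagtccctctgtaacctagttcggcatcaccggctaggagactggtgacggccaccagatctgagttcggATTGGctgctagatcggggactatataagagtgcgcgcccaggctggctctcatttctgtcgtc
RT1-CE5, chr20:3484091-3484340, minus strand: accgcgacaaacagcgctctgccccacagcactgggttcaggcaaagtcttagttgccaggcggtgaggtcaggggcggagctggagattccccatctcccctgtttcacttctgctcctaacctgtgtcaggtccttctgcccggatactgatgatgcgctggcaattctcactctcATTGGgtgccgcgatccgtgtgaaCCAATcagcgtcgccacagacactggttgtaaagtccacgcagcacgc

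The table of promoters held 9 of the 10 members, all but RT1-CE7. Exact matches to the response element core occurred in 3 of the 9 (B2m, Psmb10 and Tap2) and in 3.41% of all 33469 promoters over the same 250 bases. Psmb10, which was lower with VPA, had 2 copies, at 73 to 64 and at 17 to 8 bases before the start, and B2m, which was higher, had 1 copy at 150 to 141 bases before it. TTCNNNGAA was found in Psmb8 alone of the 9 and in 7.67% of all promoters. CCAAT was found in 5 of the 9 (B2m, Psmb8, RT1-Ba, RT1-CE4 and RT1-CE5) and in 34.0% of all promoters. RT1-Ba alone of the 9 matched GGGANNTCC (a form of the NF-kappaB core, 3.68% of promoters) and TGACGT (part of the X box region, 6.95%). Each was matched on both strands at overlapping bases. Related forms of the NF-kappaB site were not searched, so the class I genes cannot be said to lack such a site. Matches of this kind are descriptions of the letters only, and their part in the differences with VPA was not tested. In the RefSeq order of protein-coding genes on rat chromosome 20, Tap2, Psmb8, Tap1 and Psmb9 follow each other directly. So do RT1-CE5, RT1-CE4 and RT1-CE7, and genes of other kinds were left out of this order.

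All 3 immunoproteasome subunits were lower in the VPA libraries than in every control. Psmb10 had 6.01, 7.82 and 10.4 CPM in VPA 1, 2 and 3, 41.4, 22.1 and 33.0 CPM in the lithium libraries and 25.0, 45.3 and 32.3 CPM in the controls. Psmb8 had 37.6, 44.6 and 42.2 CPM with VPA, 95.1, 79.7 and 84.7 CPM with lithium and 68.1, 92.5 and 82.0 CPM in the controls. Psmb9 had 61.2, 68.2 and 76.4 CPM with VPA, 139.8, 95 and 107 CPM with lithium and 88.4, 138 and 105 CPM in the controls. The highest VPA library thus lay below the lowest lithium library and the lowest control for each subunit. The log2 fold change of VPA over control was -2.07 ± 0.30 (SE) for Psmb10, -0.96 ± 0.17 for Psmb8 and -0.69 ± 0.21 for Psmb9. Their sum was 105, 121 and 129 CPM in the VPA libraries, 276, 197 and 225 CPM in the lithium libraries and 181, 276 and 219 CPM in the controls. The 3 subunits did not keep 1 proportion. Psmb8 reads were 6.26, 5.70 and 4.04 times those of Psmb10 with VPA, 2.30, 3.603 and 2.57 times with lithium and 2.73, 2.04 and 2.54 times in the controls, so the smallest VPA ratio exceeded every other. The ratio of Psmb8 to Psmb9 was 0.61, 0.65 and 0.55 with VPA, 0.68, 0.84 and 0.79 with lithium and 0.77, 0.67 and 0.78 in the controls.

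The light chain and 3 of the 4 heavy chain genes were higher with VPA than in every control. B2m averaged 1702 ± 248 CPM with VPA, 1074 ± 127 CPM with lithium and 938 ± 117 CPM in the controls (SD, n = 3 each). In single libraries it had 1420.2, 1797 and 1888 CPM with VPA, 1221, 996 and 1007 CPM with lithium and 933, 1057 and 823 CPM in the controls. The lowest VPA library stood above the highest lithium library, lithium 1, and above all controls. RT1-CE5 had 63.4, 76.3 and 76.1 CPM with VPA, 48.6, 44.4 and 40.4 CPM with lithium and 28.5, 48.1 and 31.3 CPM in the controls. RT1-CE7 had 39.1, 35.1 and 43.5 CPM with VPA, 25.5, 25.4 and 26.9 CPM with lithium and 23.2, 29.2 and 22.5 CPM in the controls. For both genes the VPA libraries lay above the other 6, and control 2 was the highest control. RT1-T24-4, a class I gene of the T region, had 8.19, 9.85 and 9.72 CPM with VPA, 6.81, 6.14 and 5.55 CPM with lithium and 4.63, 7.71 and 5.87 CPM in the controls. The log2 fold changes of VPA over control were 1.00 ± 0.21 (SE) for RT1-CE5, 0.86 ± 0.20 for B2m, 0.65 ± 0.17 for RT1-CE7 and 0.61 ± 0.24 for RT1-T24-4.

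RT1-CE4 was the exception among the heavy chains. It had 99.3, 118 and 118 CPM with VPA, 131, 80.9 and 72.5 CPM with lithium and 84.0, 149 and 76.5 CPM in the controls, so the groups overlapped, with lithium 1 and control 2 above every VPA library. Its log2 fold change of VPA over control was 0.12 ± 0.28 (SE), and -0.014 without control 1, -0.052 without control 3 and 0.47 without control 2. Psmb8, Psmb9, Psmb10, B2m, RT1-CE5 and RT1-T24-4 were also highest in lithium 1 within the lithium group and in control 2 within the controls. Among the lithium libraries, RT1-CE7 was highest in lithium 3 and RT1-Ba in lithium 2. Over 10288 genes, lithium 1 and control 2 deviated from their group means together (r = 0.679 across genes, which are not independent replicates), and the part of this in the values was not tested. The 4 heavy chain genes together had 210.0, 239 and 247 CPM with VPA, 212, 157 and 145 CPM with lithium and 140.4, 234 and 136 CPM in the controls, so that the sums overlapped through lithium 1 and control 2. How the counted reads are split among the 4 copies does not alter this sum. Reads left uncounted because copies share them, or assigned to further copies, would alter it.

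Over the 9 members tested, 8 had VPA and control libraries that did not overlap, 5 with VPA above and 3 with VPA below. Among all 12719 genes tested the share was 25.5%, with 14.1% above and 11.4% below. The members were chosen by this comparison, so their count says nothing further. In the fit across all genes, 8.7% were called at an adjusted p under 0.05, 5.71% higher and 2.99% lower. VPA and control libraries of the same number deviated together, and with that number as a block on these groups alone the count of called genes was 2408, against 1106 without it.

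**Figure D1:**
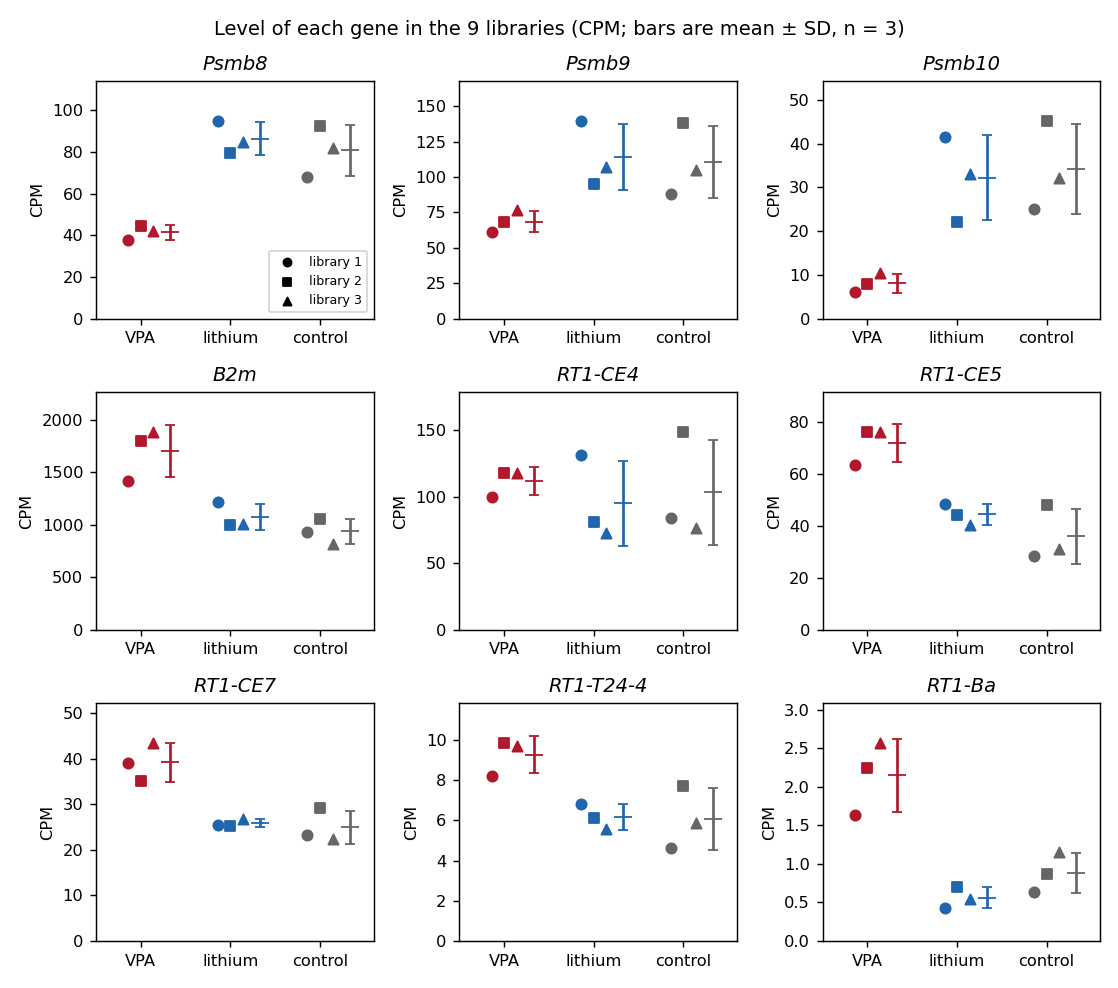
CPM of the 9 members with enough counts in each library (y axes, linear from 0), with VPA left, lithium in the middle and control right; points are libraries, with shapes for their numbers, and bars are the mean ± SD of 3. The VPA points of Psmb8, Psmb9 and Psmb10 lie below all other points, those of B2m, RT1-CE5, RT1-CE7, RT1-T24-4 and RT1-Ba lie above them, and those of RT1-CE4 overlap with the rest.

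RT1-Ba, the class II alpha chain, was near the limit of detection. It had 21, 21 and 32 counts in VPA 1, 2 and 3, 5, 8 and 7 counts in the lithium libraries and 7, 8 and 13 counts in the controls. As levels these were 1.64, 2.25 and 2.57 CPM with VPA, 0.431, 0.702 and 0.539 CPM with lithium and 0.635, 0.868 and 1.16 CPM in the controls. Every VPA library exceeded all the others, and the log2 fold change of VPA over control was 1.26 ± 0.37 (SE). Ciita, the coactivator that class II genes need, had 2.18, 2.78 and 3.05 CPM with VPA, 3.102, 2.11 and 3.08 CPM with lithium and 2.27, 3.15 and 4.09 CPM in the controls, and did not pass the test (log2 fold change -0.25 ± 0.31, adjusted p = 0.707 by edgeR). Class II is borne mainly by leucocytes, of whose 12 markers 2 had a name. The lysosomal protein Cd68 stood at 23.3, 33.1 and 41.3 CPM with VPA against 8.53, 8.68 and 14.2 CPM in the controls, and the endotoxin receptor Cd14 at 7.57, 10.7 and 11.6 CPM with VPA against 17.1, 14.7 and 29.5 CPM in the controls. The sum of the 2 markers was 30.9 to 52.8 CPM with VPA, 26.8 to 45.6 CPM with lithium and 23.3 to 43.7 CPM in the controls; its part in the RT1-Ba level was not tested.

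Within a library, the ratio of the light chain to each immunoproteasome subunit was higher with VPA. B2m reads were 37.8, 40.3 and 44.8 times those of Psmb8 in VPA 1, 2 and 3, 12.8, 12.5 and 11.9 times in the lithium libraries and 13.7, 11.4 and 10.03 times in the controls. Over Psmb9 the ratio was 23.2, 26.3 and 24.7 with VPA, 8.73, 10.5 and 9.40 with lithium and 10.6, 7.65 and 7.86 in the controls. Over Psmb10 it was 236, 229.9 and 181 with VPA, 29.5, 45.0 and 30.5 with lithium and 37.4, 23.4 and 25.5 in the controls. The VPA libraries stood above the other 6 in all 3 ratios, and these ratios do not depend on the scaling between libraries. RT1-CE5 and B2m kept closer to each other, at a ratio of 0.0447, 0.0424 and 0.0403 with VPA, 0.0398, 0.0446 and 0.0401 with lithium and 0.0305, 0.0455 and 0.0380 in the controls, where the groups overlapped. The groups also overlapped for RT1-CE7 over B2m. RT1-CE4 over B2m was lower with VPA than in the other 6 libraries, at 0.0699, 0.0657 and 0.0622. That ratio was 0.108, 0.0812 and 0.0720 with lithium and 0.0900, 0.141 and 0.0930 in the controls. Ratios of reads are not ratios of transcripts, since the genes differ in length. They describe the contrast that chose the members and carry no test.

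**Figure D2:**
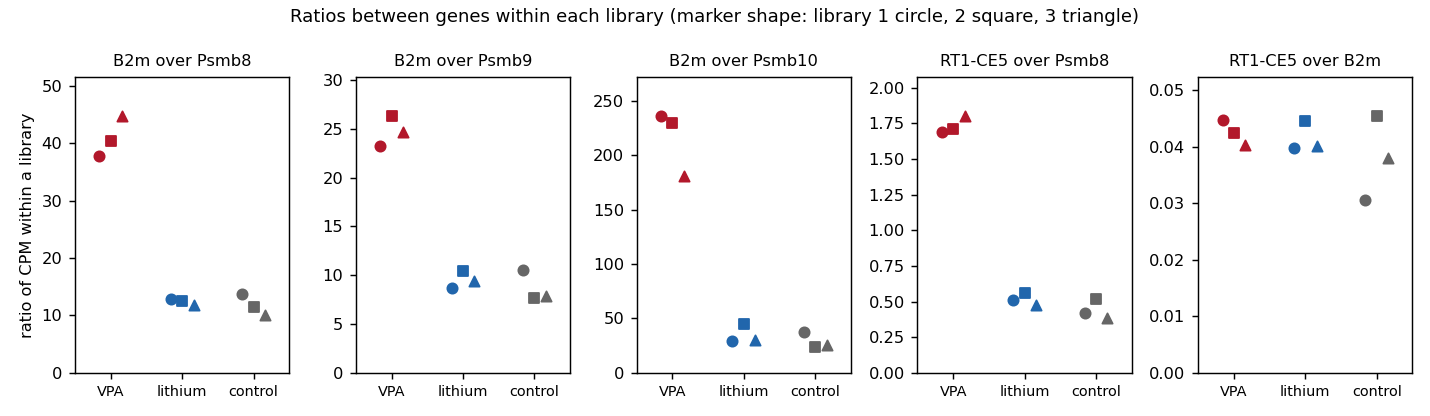
Ratios of CPM between member genes within each library (y axes, linear from 0) for VPA, lithium and control, with library numbers as shapes. B2m over Psmb8 is 37.8 to 44.8 in the VPA libraries and 10.03 to 13.7 in the other 6, while RT1-CE5 over B2m overlaps between the groups.

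Lithium against control asks whether the other mood stabiliser moved the same genes. None of the 9 members was called in edgeR's quasi-likelihood test, where every adjusted p was 1, and the lithium and control libraries overlapped for all 9. The background is equally empty, since 0% of the 12719 genes were called by edgeR and 0 by DESeq2, 116 had an unadjusted p under 0.05 by edgeR, and 3.28% had groups that did not overlap (1.71% with lithium above and 1.57% with lithium below). The log2 fold changes of lithium over control came with 95% intervals that limit their size. For Psmb8 the change was 0.10 (-0.26 to 0.45), for Psmb9 0.05 (-0.40 to 0.49) and for Psmb10 -0.08 (-0.71 to 0.54). This comparison shares the control libraries with the one that chose the members. For B2m the change was 0.20 (-0.23 to 0.62), for RT1-CE5 0.31 (-0.14 to 0.76), for RT1-CE7 0.06 (-0.32 to 0.43), for RT1-T24-4 0.03 (-0.49 to 0.55) and for RT1-CE4 -0.12 (-0.72 to 0.49). RT1-Ba, at -0.66 (-1.58 to 0.26), had the widest interval. The intervals for B2m and RT1-CE5 reach up to 0.62 and 0.76 on the log2 scale, so a rise of that size is not excluded by them.

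VPA against lithium was not used to choose the members, but it shares the VPA libraries with the comparison that was. The choice favoured genes whose VPA libraries stand apart from control, and lithium and control overlapped for every member tested. Calls and counts of members against lithium are therefore tilted by the choice and are not independent evidence. With p-values adjusted over all genes in edgeR's quasi-likelihood test, 2 of the 8 members other than RT1-Ba were called, beside a background of 7.93% (5.61% higher and 2.32% lower). Psmb10 was lower with VPA by a log2 fold change of -1.99 ± 0.30 (SE, adjusted p = 0.00264), and Psmb8 by -1.06 ± 0.17 (adjusted p = 0.00295). Both were called under all 19 alternatives tried. RT1-Ba, which was kept by the count filter only through its VPA libraries, is given without a test, at 1.93 ± 0.38. The other 6 members did not pass. They were Psmb9 (-0.73 ± 0.21, adjusted p = 0.0503 by edgeR), RT1-CE7 (0.60 ± 0.17, 0.0531), B2m (0.66 ± 0.20, 0.0619), RT1-CE5 (0.69 ± 0.21, 0.0628), RT1-T24-4 (0.58 ± 0.23, 0.17) and RT1-CE4 (0.23 ± 0.28, 0.696). Groups did not overlap for 7 of the 8 members, all but RT1-CE4, with VPA above in 4 and below in 3, beside 29.2% of all genes (15.8% above and 13.5% below).

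The 4 members nearest the threshold against lithium crossed it under a minority of the settings. Of 19 alternatives, Psmb9 was called in 9 (adjusted p up to 0.202), RT1-CE5 and RT1-CE7 in 7 each (up to 0.18 and 0.167) and B2m in 4 (up to 0.209). DESeq2 called Psmb9 (adjusted p = 0.0188), RT1-CE7 (0.0192), RT1-CE5 (0.026) and B2m (0.00623), so that it called 6 of the 8. Without control 2 all 4 were called by edgeR as well, at adjusted p = 0.03 for Psmb9, 0.0369 for RT1-CE7, 0.0185 for RT1-CE5 and 0.049 for B2m. Their log2 changes were then -0.72, 0.61, 0.70 and 0.67. Psmb9 was also called without control 1 (-0.74, adjusted p = 0.0457), and RT1-CE7 (0.61, 0.0427) and B2m (0.67, 0.04996) without control 3, by edgeR. Over the 19 alternatives the log2 change of VPA over lithium ran from 0.58 to 0.78 for B2m and from -0.85 to -0.55 for Psmb9.

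**Figure D3:**
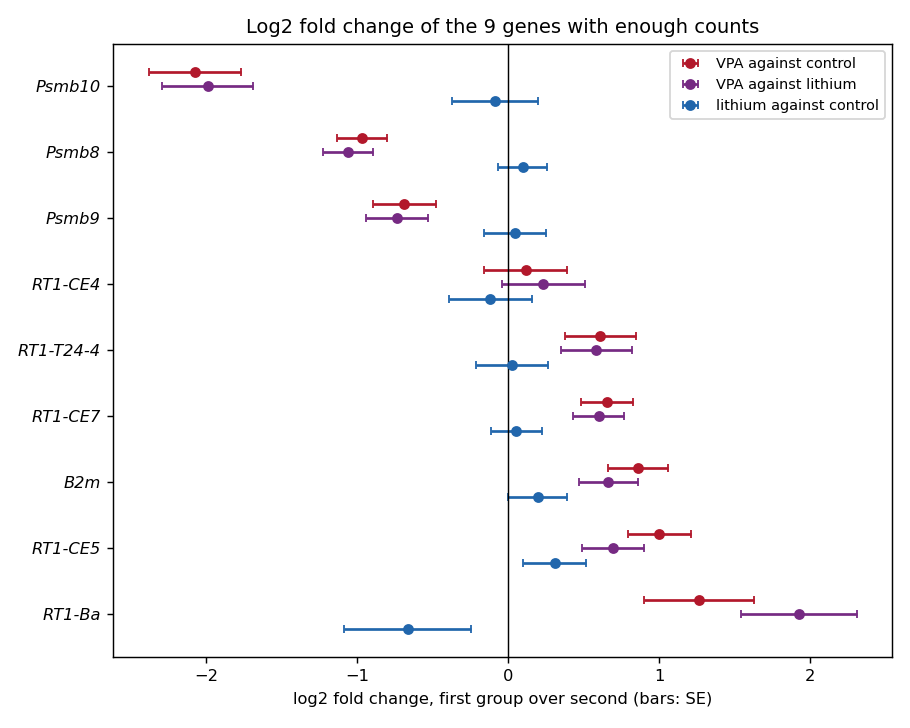
Log2 fold change (x axis) of the 9 members with enough counts for VPA against control, VPA against lithium and lithium against control, drawn as the first group over the second; points are edgeR estimates and bars are SE. Psmb10, Psmb8 and Psmb9 lie left of 0 in both VPA comparisons and B2m, RT1-CE5, RT1-CE7, RT1-T24-4 and RT1-Ba lie right of it, while the lithium points of all but RT1-Ba and RT1-CE5 lie within 0.20 of 0.

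Other genes of the pathway could be followed only as far as the authors had named them. Lists of 114 genes were drawn up for the proteasome, peptide trimming, loading chaperones, MHC transcription factors, interferon receptors with their regulators, the interferon-induced ubiquitin-like system, class I-like molecules and class II. Of these 13 had a name and 12 enough counts, and the authors chose the names by p-value on these samples, so neither the counts nor the p-values below are independent evidence of a change or of its direction. For VPA against control 9 fell, 1 rose and 2 did not pass, and the median log2 change of the 12 was -0.90, beside -0.01 over all genes tested. The background was 2.99% lower and 5.71% higher. The choice of named genes favours such a difference by itself, so nothing is read from it. For VPA against lithium 6 fell and 1 rose, and for lithium against control 0 changed. The calls of Calr, Isg15 and Nfyc against lithium were lost in 4, 7 and 5 of the 9 fits that left out 1 library.

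Among genes that act on loading, Tapbpl, a homologue of tapasin that edits peptides, had 8.74, 8.03 and 10.6 CPM with VPA, 22.2, 18.4 and 24.0 CPM with lithium and 20.7, 25.7 and 24.9 CPM in the controls. It fell by 1.38 ± 0.20 (log2, SE) relative to control, with an adjusted p of 0.00197 by edgeR, and all VPA libraries lay below the others. The chaperone Calr, calreticulin, rose by 1.18 ± 0.30 (adjusted p = 0.03 by edgeR), but its 1434, 3370 and 1495 CPM with VPA were uneven, against 914, 899 and 958 CPM in the controls. Without VPA 2 its change was 0.66 and was not called (adjusted p = 0.0853 by edgeR), nor was it without control 1, 2 or 3 (log2 1.17, 1.16 and 1.22, adjusted p = 0.0877, 0.0717 and 0.0574). Psmc3, an ATPase of the proteasome's regulatory particle, fell by 0.73 ± 0.18 (adjusted p = 0.03 by edgeR), with 221, 222 and 256 CPM with VPA against 307, 448 and 404 CPM in the controls. The call did not hold when VPA 1, 2 or 3 or control 2 or 3 was left out, at log2 changes of -0.69, -0.70, -0.80, -0.62 and -0.69 (adjusted p = 0.112, 0.109, 0.054, 0.0845 and 0.0638 by edgeR). Hfe, a class I-like molecule that pairs with B2m and regulates iron, did not pass at -0.74 ± 0.30 (adjusted p = 0.16 by edgeR), though it did with the replicate number as a block on VPA and control alone (-0.78, adjusted p = 0.0223). Psme1, a subunit of the interferon-induced proteasome activator, had 0 to 2 counts per library and was not tested.

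The genes of the interferon response below carry names through the same choice by p-value, and their p-values are no independent evidence. Irf1, the transcription factor that interferon gamma induces and that drives class I genes, had 50.6, 47.8 and 53.4 CPM with VPA, 90.1, 78.6 and 102 CPM with lithium and 85.6, 88.0 and 104 CPM in the controls. Its log2 change against control was -0.87 ± 0.16 (adjusted p = 0.00635 by edgeR), with all VPA libraries below the others. Ube2l6, the conjugating enzyme for Isg15, changed by -1.49 ± 0.25 (adjusted p = 0.0041 by edgeR), with 11.1, 13.8 and 16.1 CPM with VPA against 30.2, 40.1 and 45.1 CPM in the controls. Its activating enzyme Uba7 changed by -0.93 ± 0.20 (adjusted p = 0.0131 by edgeR) and lost the call without VPA 1 (-0.85, adjusted p = 0.0608). Isg15 itself, the ubiquitin-like modifier, changed by -1.03 ± 0.25 (adjusted p = 0.0258 by edgeR). Isg15 had 14.6, 16.5 and 15.0 CPM with VPA against 29.0, 35.3 and 29.7 CPM in the controls, and 40.7, 18.9 and 26.8 CPM with lithium. It was not called without VPA 1, 2 or 3 or control 1 or 2 (log2 changes -0.99, -1.08, -1.01, -1.08 and -0.94, adjusted p = 0.0906, 0.0674, 0.0793, 0.0551 and 0.0663 by edgeR).

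Of 10 listed interferon receptors, kinases and regulators 2 had a name, the feedback inhibitors Socs3 and Socs1. Socs3 had 19.0, 18.7 and 24.8 CPM with VPA, 36.3, 27.2 and 34.2 CPM with lithium and 43.3, 43.2 and 47.7 CPM in the controls, a log2 change of -1.10 ± 0.18 against control (adjusted p = 0.00417 by edgeR). Its lithium libraries lay between the other groups without overlapping them, but neither lithium against control (-0.46 ± 0.18, adjusted p = 1) nor VPA against lithium (-0.64 ± 0.18, adjusted p = 0.0543) passed edgeR's test; VPA against lithium did without VPA 3 (-0.79, adjusted p = 0.0424 by edgeR), with DESeq2 (adjusted p = 0.024) and with the replicate block over all 9 libraries (adjusted p = 0.0255 by edgeR). Socs1 changed by -1.32 ± 0.34 (adjusted p = 0.035 by edgeR), with 2.03, 2.78 and 1.69 CPM with VPA against 3.18, 5.32 and 7.64 CPM in the controls. It was no longer called when VPA 1, 2 or 3 or control 2 or 3 was left out (log2 changes -1.28, -1.54, -1.17, -1.35 and -0.97, adjusted p = 0.116, 0.0527, 0.118, 0.0663 and 0.116 by edgeR). Nfyc, a subunit of the NF-Y factor that binds CCAAT, changed by -0.67 ± 0.18 (adjusted p = 0.0392 by edgeR), and its call was lost in 8 of the 9 fits that left out 1 library, all but the one without VPA 2. In those 9 fits its log2 change ran from -0.81 to -0.53 and its adjusted p from 0.0432 to 0.118. Tapbpl, Ube2l6, Irf1 and Socs3 kept their calls against control under all 19 alternatives, and Tapbpl, Ube2l6, Irf1 and Uba7 kept theirs against lithium.

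**Figure D4:**
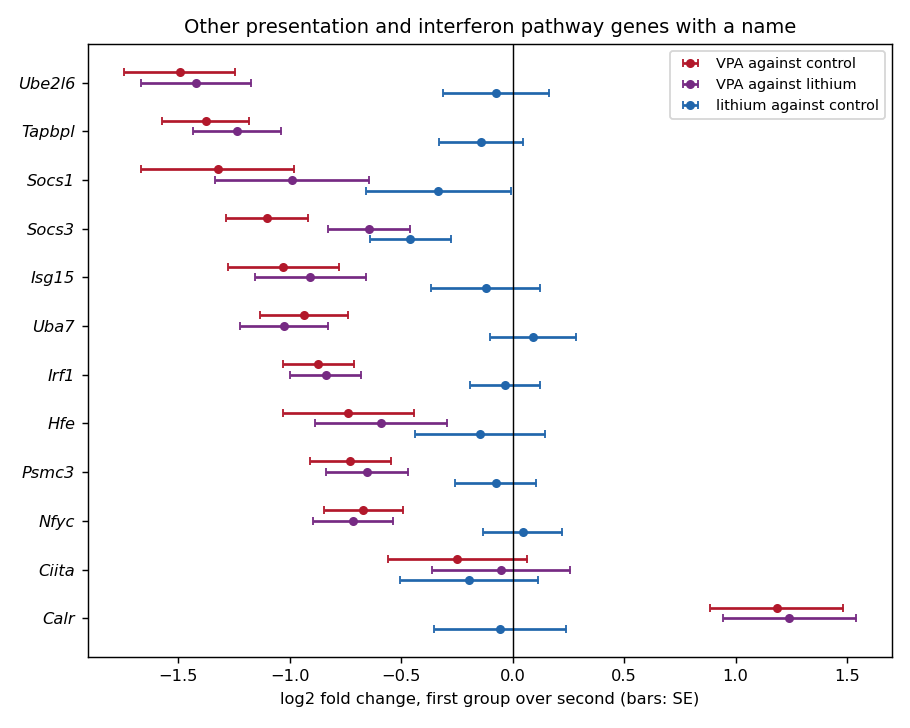
Log2 fold change (x axis) of the 12 other pathway genes that had a name and enough counts, for VPA against control, VPA against lithium and lithium against control; points are edgeR estimates of the first group over the second and bars are SE. Ube2l6, Tapbpl and Socs1 are farthest to the left for VPA against control, at -1.49, -1.38 and -1.32, and Calr alone lies to the right, at 1.18.

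The class I RT1 genes belong to a family of similar copies that can share reads, which makes their single values uncertain, and RT1-Ba is a class II gene outside that family. The deposited tables did not count these genes alike. For 1211 genes listed in the authors' DESeq2 table, the mean count there was 1.02 times the mean of the 6 VPA and control libraries in the count table (median; 5th to 95th percentile 0.989 to 1.09). That the authors' mean covers these 6 is inferred from the values, since over all 9 libraries the median ratio was 1.14 and 28.0% of the genes lay outside 0.8 to 1.25. For Psmb8, B2m, Psmb9 and Psmb10 the ratio was 1.00, 1.00, 1.02 and 1.02. It was 0.779 for RT1-CE5, 1.79 for RT1-CE7 and 2.80 for RT1-Ba, which put all 3 RT1 genes of that table among the 10 genes (0.826%) outside 0.8 to 1.25. The Salmon table, which lists single transcripts that are set here against counts of whole genes, differed more widely, with a median ratio of 1.01 over 909 genes and a 5th to 95th percentile of 0.531 to 1.99. Psmb8 stood just outside that range at 2.05, while B2m was at 1.01 and Psmb10 at 1.32. In the authors' deposited table the mean of the observations for RT1-CE4 corresponds to 302 reads where the count table has a geometric mean (after adding 0.5) of 1176, and for RT1-CE7 to 1114 reads where it has 350.2. Tap2, with 2 counts in the whole count table, corresponds to 827 reads in the Salmon table.

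**Figure D5:**
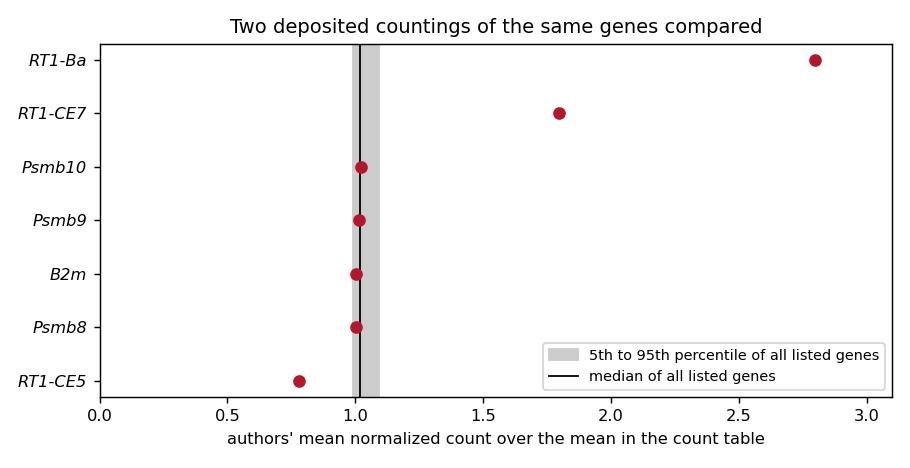
Mean normalised count in the authors' DESeq2 table divided by the mean of the 6 VPA and control libraries in the count table (x axis, linear), for the 7 members that both hold; the line is the median of 1211 genes and the band their 5th to 95th percentile. The immunoproteasome subunits and B2m lie at 1.00 to 1.02, and RT1-CE5 (0.779), RT1-CE7 (1.79) and RT1-Ba (2.80) lie outside the band.

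Signs of VPA over control did not differ between these countings of the same libraries. The authors listed genes by p-value in this comparison, so agreement in sign was nearly fixed in advance and adds no support. For RT1-CE4 the sign from the count table turned when control 1 or control 3 was left out. In the authors' deposited DESeq2 table the log2 changes of VPA over control were -1.8 for Psmb10, -0.9 for Psmb8, -0.6 for Psmb9, 0.8 for B2m, 0.9 for RT1-CE5, 0.6 for RT1-CE7 and 0.9 for RT1-Ba. The authors' deposited Salmon table gives effects that correspond to log2 values of -2.09 for Psmb10, -1.03 for Psmb8 and -0.84 for Tap2. For the chains, the authors' deposited Salmon table corresponds to 0.83 for RT1-CE4, 0.77 for RT1-CE7, 1.05 for RT1-T24-4, 0.85 for B2m and 1.151 for RT1-Ba. RT1-CE4 is thus the member whose size differed most, at 0.83 in the Salmon table against 0.12 from the count table, and Tap2 can be read from the Salmon table only. The authors' deposited Cufflinks table holds 4 members, with 6.72 FPKM for Psmb10 with VPA and 32.6 FPKM in control on chromosome 19 from 37909399 to 37912529. Psmb9, on chromosome 20 from 3973419 to 3978845, had 71.5 FPKM with VPA and 121 FPKM in control in the authors' deposited table. B2m, on chromosome 3 from 114087286 to 114093309, had 879 FPKM with VPA and 503 FPKM in control in the authors' deposited table, and RT1-Ba, on chromosome 20 from 4066131 to 4070721, had 5.68 FPKM with VPA and 2.54 FPKM in control. The build of these positions is not given in the sources used here and is not that of the promoter sequences above.

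Likeness across the 9 libraries was measured as the Pearson correlation of log2 CPM with Psmb8 or with B2m. The 3 VPA libraries stand apart from the other 6 for both genes, so the values are a description of that split more than of a graded relation. The candidates carry names because the authors listed them by p-value on these libraries, mostly for VPA against control. High correlations and ranks are therefore partly built in. Of 1225 named genes, those most like Psmb8 were Npepl1 (an aminopeptidase-like protein, r = 0.978), the microtubule destabiliser Stmn1 (0.978), Psmb10 (0.976), Ccdc74a (0.970) and the replication licensing factor Cdt1 (0.969). Psmb9 ranked 64th at 0.938. Those most like B2m were Gprasp2 (0.983), a protein that sorts receptors, the homeobox gene Rhox5 (0.965), the oxidoreductase Mical1 (0.965), the glutathione transferase Gstp1 (0.964) and the metallothionein Mt3 (0.956). RT1-CE5 ranked 10th for B2m at 0.946, RT1-CE7 had 0.907, RT1-T24-4 0.888, RT1-Ba 0.726 and RT1-CE4 0.552. RT1-CE4 was like neither gene, with -0.110 for Psmb8. Psmb8 and B2m themselves correlated at -0.776.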

How the data were processed

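Polyadenylated RNA of RN46A cells was read without strand, per the labels' protocols, and overlapping or antisense genes cannot be told apart. Per the submitters' processing notes, the tools were STAR 2.5.1, Salmon 0.6.1, kallisto 0.42.4, Cufflinks 2.2.1, CASAVA 1.8, sleuth and DESeq2, with no roles stated, and the build is not given in the sources used here. The authors deposited whole-number counts per Ensembl gene, with 0 rows that name no gene. Their DESeq2 table holds log2 fold changes, mean normalised counts (a signal) and adjusted p-values, per the file headers. A table titled for kallisto repeats all its 1212 lines and was not used. The authors deposited a Cufflinks table of 1 FPKM value per group with q-values, and a Salmon and sleuth table of effects taken as natural log, since they are 0.697 of the Cufflinks log2 ratios (median of 586 transcripts). The authors' deposited lithium table stops at an unadjusted p of 0.0499.

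Counts were fitted in edgeR 4.0.16 (R 4.3.3) with TMM scaling, filterByExpr (minimum count 10) and a robust quasi-likelihood fit. The model held a mean per group and used all 9 libraries, which leaves 6 residual degrees of freedom. Tests were two-sided with Benjamini-Hochberg adjustment over 12719 genes, called at an adjusted p under 0.05; the biological coefficient of variation was 0.22. SE is the log2 change over the square root of F. The fit was tested on simulated counts. The members, lists, motifs and tests were chosen with earlier results of these data known. Named genes are all members, up to 6 named members of each list, the 5 genes most like Psmb8 and B2m, and markers with a name. Symbols came only from the authors' tables. Promoters were searched over 250 bases before the start, which leaves out the transcribed part. Alternatives were DESeq2 1.42.0, other scalings and filters, the groups of a contrast alone, a replicate block, a non-robust fit and each library left out. Same-numbered VPA and control libraries deviated together (r = 0.595, 0.533 and 0.525 over 10288 genes); the numbers come from the titles, and the labels state no pairing. Same-numbered lithium and control libraries did not all do so (-0.416, -0.0817 and 0.799), while lithium 1 went with control 2 (0.679) and lithium 2 with control 1 (0.645). Whether those lithium numbers are exchanged was not tested.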

Additional observations from a re-analysis of the deposited data

How the results depend on the processing

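No scaling moved the median log2 change of all genes by 0.1 or more. With the replicate block over all 9 libraries, 1741 genes were called for VPA against control and 1609 for VPA against lithium, against 1106 and 1009 without it. With only VPA and control in the blocked fit 2408 were called, which is a pairing of those libraries by their numbers; same-numbered lithium libraries did not all pair with the controls, and numbers 1 and 2 may be exchanged there, so the blocked values that involve lithium may not follow true pairs. Leaving out 1 library gave 638 to 1026 calls for VPA against control, 544 to 1197 for VPA against lithium and 0 for lithium against control, where every other setting gave 0 as well. Of the 8 members other than RT1-Ba, 2 were called against lithium, 6 with DESeq2, 5 with those groups alone or the block over all libraries, and 4 with the block on those groups alone. B2m against lithium passed with DESeq2 (log2 0.67) and with library totals alone (0.68). Without 1 library its change ran from 0.58 to 0.78.

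Directions turned only where 1 library was left out, and all such changes were within 0.2 of 0 with all libraries except Socs1 for lithium against control, at -0.33. For lithium against control the ranges were -0.013 to 0.18 for Psmb8, -0.14 to 0.22 for Psmb9, -0.32 to 0.15 for Psmb10, -0.44 to 0.23 for RT1-CE4, -0.017 to 0.16 for RT1-CE7 and -0.14 to 0.21 for RT1-T24-4. Among the pathway genes they were -0.22 to 0.024 for Psmc3, -0.39 to 0.036 for Ciita, -0.14 to 0.057 for Irf1, -0.030 to 0.083 for Nfyc, -0.61 to 0.013 for Socs1, -0.47 to 0.11 for Isg15, -0.22 to 0.13 for Ube2l6, -0.016 to 0.26 for Uba7 and -0.34 to 0.10 for Hfe. RT1-CE4 ran from -0.052 to 0.47 for VPA against control, and Ciita from -0.21 to 0.080 for VPA against lithium. The cause was not tested. With VPA and control alone in the fit Calr, Psmc3, Nfyc and Socs1 were not called by edgeR (adjusted p = 0.0529, 0.0619, 0.0882 and 0.0592). RT1-Ba and Tap2 are limited by their counts, and fits that leave out 1 library take no account of pairs.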
